A study of Mus musculus with 6 samples.

Results

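Crypt stem cell markers were followed in the RNA of mouse AKP organoids labelled GATA6KO or Control. The 10 genes were Lgr5, Ascl2, Olfm4, Smoc2, Prom1, Lrig1, Tnfrsf19, Cd44, Msi1 and Bmi1. They were chosen by symbol as known markers of intestinal stem and progenitor cells, with earlier results of these data known. Each matched 1 of the 54418 rows of the deposited table. Organoids are epithelial cultures that organise themselves in a gel. There were 3 GATA6KO libraries, named for knockout of the zinc-finger factor GATA6, and 3 Control libraries, and both groups carry the AKP background, whose alleles the labels do not spell out. The comparison asks how the RNA of these genes differs with the knockout. The labels do not say how the knockout was made, whether the 3 libraries of a group came from separate cultures or clones, or what the controls received, and a p-value here covers no more than how far these libraries varied, possibly for technical reasons.

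Intestinal crypts are renewed by stem cells at their base, which depend on Wnt signalling. Lgr5, a receptor for the secreted R-spondins, is both a target of that signalling and an amplifier of it, since R-spondin bound to an Lgr receptor withdraws the ligases Rnf43 and Znrf3 that would otherwise remove Wnt receptors from the cell surface. Ascl2, Olfm4, Smoc2 and Tnfrsf19 are markers found in Lgr5-expressing cells of the mouse intestine, whereas Bmi1 and Lrig1 were described in other or wider crypt populations, and Prom1, Cd44 and Msi1 mark progenitors more broadly. In colorectal tumours, cells with and without Lgr5 can interconvert.

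Total estimated counts were 29208525 to 29674562 in GATA6KO libraries and 22973245 to 31328415 in Control libraries. Gata6 itself measured 14.3, 16.0 and 8.24 CPM (counts per 1000000 counts of a library, scaled between libraries by TMM) in GATA6KO replicates 1 to 3, against 25.3, 23.2 and 28.0 CPM in Control replicates 1 to 3. The edgeR fit gave a log2 fold change of -0.99 (SE 0.25, adjusted p = 0.0486), and Gata6 was not called when any 1 Control library was left out (adjusted p = 0.128 to 0.181). Leaving out Control replicate 1, 2 or 3 cut the calls over all genes from 1823 to 425, 389 or 332. Most calls were therefore lost in those fits, whatever the gene. The GATA6KO libraries differed more among themselves than the Control libraries, with a log2 SD per gene of 0.279 in GATA6KO and 0.0949 in Control at the median. Chromosome 14, where Olfm4 and Tnfrsf19 lie, was low in GATA6KO replicate 2: the median gene stood -0.90 from the Control mean in log2 units there, and -0.09 and 0.04 from it in GATA6KO replicates 1 and 3. Of 6 epithelial genes, 3 fell (Cdh1, Krt8 and Krt18) and 0 rose by edgeR, where 5.47% of all 14714 genes tested were called lower. At an unadjusted p under 0.05 the counts were 5 and 0, with no share over all genes counted at that threshold. All 3 calls were lost without Control replicate 2 or 3. The summed level of the 6 was 4160 to 4901 CPM in GATA6KO and 6391 to 6731 CPM in Control. Of this, Krt8 alone held 2242 and 3272 CPM on average. Stromal markers (6 genes) summed to at most 0.700 CPM and endothelial markers (5 genes) to at most 0.667 CPM in any library. The 6 immune genes summed to 3.20 to 5.75 CPM in GATA6KO and 11.2 to 14.5 CPM in Control, of which Cd68, also a lysosomal protein of other cells, held 3.43 and 11.9 CPM on average; the pan-leukocyte gene Ptprc had at most 11 counts in any library.

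Lgr5, Prom1 and Lrig1 fell in the GATA6KO organoids, and 5 other markers did not pass the test. Olfm4 and Msi1 were too low to be tested. Of the 10 genes, 8 passed the filter on low counts, and of these 3 fell and 0 rose by edgeR's quasi-likelihood test at an adjusted p under 0.05. Over all 14714 genes tested, 5.47% were called lower and 6.92% higher. The 8 log2 fold changes had a median of -0.15, with 4 above and 4 below 0, beside a median of 0.02 over all genes tested. With 3 against 3 libraries a 2-sided exact permutation test of a single gene cannot give less than 0.1. At an unadjusted p under 0.05 the counts were 3 lower and 1 higher (Cd44). The shares over all genes given above are for the adjusted p, and none was counted at the unadjusted threshold. DESeq2 and limma-voom also called 3 lower and 0 higher. Lrig1 was the least stable of the 3, and without GATA6KO replicate 2 the calls were Lgr5 and Prom1 lower and Smoc2 higher.

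**Figure D1:**
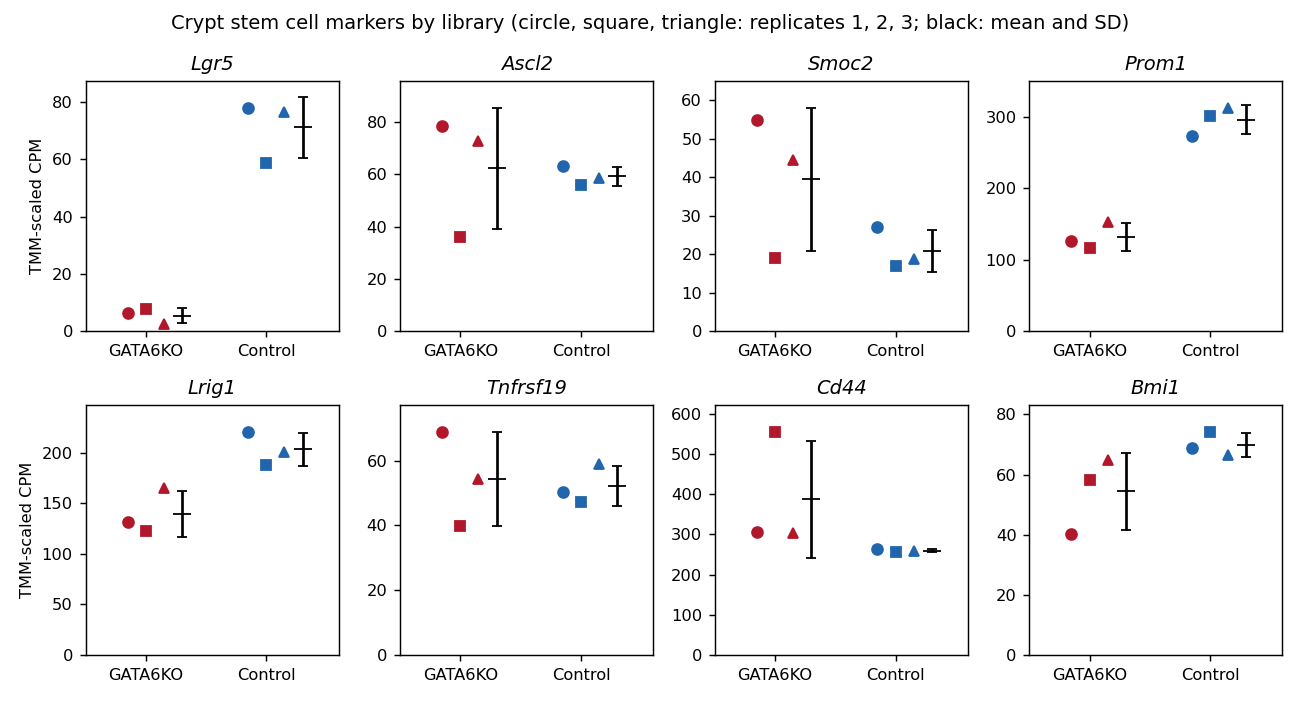
TMM-scaled CPM of the 8 tested markers in each GATA6KO library (red, left) and Control library (blue, right), with the mean and SD over 3 libraries in black. Lgr5 lay between 2.37 and 7.70 CPM in GATA6KO, below 58.9 CPM, the lowest Control value, while the groups overlapped for Ascl2, Smoc2 and Tnfrsf19.

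Lgr5 (ENSMUSG00000020140, mm10 chromosome 10, 115450311 to 115587780, minus strand) had 191, 235 and 71 counts in GATA6KO replicates 1 to 3, against 1781, 1700 and 2299 counts in Control replicates 1 to 3. These were 6.39, 7.70 and 2.37 CPM in GATA6KO and 78.0, 58.9 and 76.7 CPM in Control. All GATA6KO libraries lay far below all Control libraries. GATA6KO replicate 3, the library with the least Gata6, was the lowest in Lgr5. It was the highest of its group in Prom1, Lrig1 and Bmi1 (153, 166 and 64.8 CPM). Relative to the average of Control, 8.97%, 10.8% and 3.33% remained in GATA6KO replicates 1 to 3. This was a log2 fold change of -3.70 (SE 0.41, edgeR adjusted p = 0.00445, exact permutation p = 0.1), the 37th most negative of the 14714 genes tested, and the call held under each of 16 alternatives, including each library left out in turn. RNA from whole cultures cannot tell fewer Lgr5-expressing cells from less Lgr5 RNA per cell. No other annotated gene shares its exons.

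Prom1 (ENSMUSG00000029086, chromosome 5, 43993620 to 44102032), the membrane glycoprotein also called CD133, measured 126, 116 and 153 CPM in GATA6KO replicates 1 to 3, against 273, 302 and 313 CPM in Control replicates 1 to 3. Its 3 GATA6KO values were close together and stood at 42.5%, 39.2% and 51.8% of the mean Control level. Prom1 fell by 1.17 on the log2 scale (SE 0.13, edgeR adjusted p = 0.00402), and it too was called under all 16 alternatives, at log2 fold changes of -1.29 to -1.09. An antisense gene, Gm16401, shares at most 848 exonic bases with Prom1, and had at most 8 counts in any library.

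Lrig1 (ENSMUSG00000030029, chromosome 6, 94604529 to 94700158), a transmembrane restraint on ErbB growth factor receptors that marks largely quiescent crypt cells, measured 131, 122 and 166 CPM in GATA6KO replicates 1 to 3, against 221, 188 and 201 CPM in Control replicates 1 to 3. The groups did not overlap, but the highest GATA6KO value lay near the lowest Control value. Lrig1 fell by 0.54 on the log2 scale (SE 0.14, edgeR adjusted p = 0.0475). It was called under 8 of 16 alternatives. It was not called without Control replicate 1, 2 or 3 (adjusted p = 0.184, 0.121 and 0.163), without GATA6KO replicate 1 or 2 (0.0594 and 0.0717), or with scaling to the library total alone (0.0672). Its exons share at most 144 bases with those of Slc25a26 on the opposite strand, which had at most 267 counts in any library.

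RefSeq (GRCm38.p6) gave promoter windows for 7 of the 10 genes, at 9 start sites; Lgr5, Smoc2 and Msi1 had no entry. The 250 bases before each start were searched on both strands for AGATAA, a sequence bound by GATA factors, CTTTGAT, a core of the sites of the Wnt effectors TCF and LEF, and CAGCTG, an E-box. These were in 9.99%, 3.21% and 13.0% of the 32851 promoters of the table. None of the 3 was in the windows of Prom1 or Lrig1, the genes that fell and had an entry; their sequences are shown for that reason, on the minus strand, at chr5:44094769-44095018 (the start of Prom1 farther inside the annotated gene) and chr6:94700146-94700395.
Prom1: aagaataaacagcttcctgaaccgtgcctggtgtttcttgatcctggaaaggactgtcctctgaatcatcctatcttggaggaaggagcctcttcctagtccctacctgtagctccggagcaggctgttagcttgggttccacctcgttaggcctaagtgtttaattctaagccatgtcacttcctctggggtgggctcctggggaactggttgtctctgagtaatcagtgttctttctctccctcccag
Lrig1: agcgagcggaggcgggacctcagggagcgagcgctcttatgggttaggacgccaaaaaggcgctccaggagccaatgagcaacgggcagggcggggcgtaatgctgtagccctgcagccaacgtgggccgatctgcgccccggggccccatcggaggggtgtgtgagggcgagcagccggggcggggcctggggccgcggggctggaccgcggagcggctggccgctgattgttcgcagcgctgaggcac
The other start site of Prom1, whose window lies in annotated exons, also had none of them. Only these exact letters were searched, so a window without them may still hold other forms of such sites. The Prom1 window printed here holds CTATCT, the reverse complement of AGATAG, which differs from AGATAA in its last letter and was not searched. A window without the searched letters also says nothing of binding elsewhere.

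Ascl2 (ENSMUSG00000009248, chromosome 7, 142966829 to 142969264), the basic helix-loop-helix factor that sustains the stem cell programme together with Wnt signalling, was not called. It measured 78.6, 35.9 and 72.6 CPM in GATA6KO replicates 1 to 3, against 63.2, 55.9 and 58.8 CPM in Control replicates 1 to 3. GATA6KO replicates 1 and 3 lay above every Control library and replicate 2 below every one. The fitted difference in log2 units was 0.07 (SE 0.28, 95% interval -0.58 to 0.73, edgeR adjusted p = 0.883), and this interval does not overlap that of Lgr5 (-4.68 to -2.71).

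Smoc2 (ENSMUSG00000023886, chromosome 17, 14279506 to 14404790), a secreted matricellular protein, measured 54.9, 18.9 and 44.6 CPM in GATA6KO replicates 1 to 3, against 27.1, 16.8 and 18.7 CPM in Control replicates 1 to 3. Again GATA6KO replicates 1 and 3 were above every Control library, while replicate 2 lay among them. Smoc2 had a log2 fold change of 0.92 (SE 0.39, edgeR adjusted p = 0.161), so that no change was called. Without GATA6KO replicate 2 it was 1.26 and called (adjusted p = 0.0188).

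Tnfrsf19 (ENSMUSG00000060548, chromosome 14, 60963875 to 61046490), the receptor of the tumour necrosis factor family also called Troy, measured 68.9, 39.7 and 54.3 CPM in GATA6KO replicates 1 to 3, against 50.2, 47.1 and 58.9 CPM in Control replicates 1 to 3. The groups overlapped, and GATA6KO replicate 2 was again the lowest, at 76.2% of the mean Control level. That is the library in which chromosome 14 as a whole was low, and the part of this in the value was not tested. Tnfrsf19 had a log2 fold change of 0.06 (SE 0.21, 95% interval -0.43 to 0.55, edgeR adjusted p = 0.866), and 0.24 without GATA6KO replicate 2 (adjusted p = 0.312).

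Cd44 (ENSMUSG00000005087, chromosome 2, 102811141 to 102901665), the hyaluronan receptor and a known Wnt target, measured 305, 556 and 303 CPM in GATA6KO replicates 1 to 3, against 263, 257 and 258 CPM in Control replicates 1 to 3. All GATA6KO libraries were above all Control libraries, but replicates 1 and 3 by little and replicate 2 by far. GATA6KO replicate 2, the lowest of its group for Ascl2, Smoc2, Tnfrsf19, Prom1 and Lrig1, was the highest for Cd44 and Lgr5. Cd44 had a log2 fold change of 0.58 (SE 0.24, edgeR adjusted p = 0.156), and 0.23 without GATA6KO replicate 2 (adjusted p = 0.0914). Over all genes tested, groups did not overlap for 40.8%, and for the markers this held in 5 of 8.

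Bmi1 (ENSMUSG00000026739, chromosome 2, 18677018 to 18686629), a Polycomb protein that silences genes through chromatin, measured 40.2, 58.1 and 64.8 CPM in GATA6KO replicates 1 to 3, against 68.9, 74.3 and 66.6 CPM in Control replicates 1 to 3. GATA6KO values lay below Control values, replicate 3 only just. Bmi1 had a log2 fold change of -0.36 (SE 0.18, edgeR adjusted p = 0.212), which did not pass the test.

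Olfm4 and Msi1 were close to absent from these libraries. Olfm4 (ENSMUSG00000022026, chromosome 14, 79984081 to 80023139), a secreted glycoprotein abundant in stem cells of the mouse small intestine, had 1, 0 and 1 counts in GATA6KO and 3, 2 and 2 counts in Control. Msi1 (ENSMUSG00000054256, chromosome 5, 115429599 to 115455698), an RNA-binding protein, had 0, 0 and 3 counts in GATA6KO and 1, 2 and 1 counts in Control. No difference was detectable for either gene at this depth.

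Among the 7 genes with promoter windows, the only matches were in Cd44 and in the start of Tnfrsf19 inside the gene, and both are printed with the matches in capitals. Cd44 (chr2:102901666-102901915, minus strand) held AGATAA beginning at position -233 from the start. Tnfrsf19 (chr14:61037988-61038237, minus strand) held ATCAAAG, the reverse complement of CTTTGAT, beginning at -202, and CAGCTG beginning at -10.
Cd44: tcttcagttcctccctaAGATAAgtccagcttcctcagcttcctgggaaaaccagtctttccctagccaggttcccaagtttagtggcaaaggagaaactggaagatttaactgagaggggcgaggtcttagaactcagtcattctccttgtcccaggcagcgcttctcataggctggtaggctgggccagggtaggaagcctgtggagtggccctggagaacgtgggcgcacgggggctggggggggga
Tnfrsf19: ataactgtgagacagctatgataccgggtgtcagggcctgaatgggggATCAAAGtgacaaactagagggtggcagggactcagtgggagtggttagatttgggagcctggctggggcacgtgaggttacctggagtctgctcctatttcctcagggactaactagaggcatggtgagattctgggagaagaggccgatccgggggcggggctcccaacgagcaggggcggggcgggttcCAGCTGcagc
Neither gene was called, and both groups of organoids had its RNA.

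**Figure D2:**
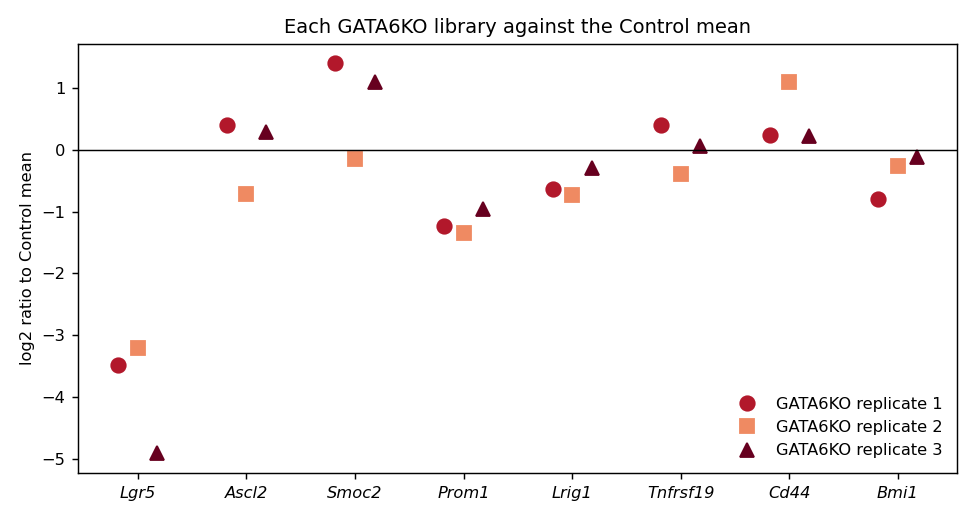
The log2 ratio of each GATA6KO library to the mean of 3 Control libraries, for the 8 tested markers (one symbol for each replicate). All 3 libraries were below 0 for Lgr5, Prom1, Lrig1 and Bmi1 and above 0 for Cd44, while replicate 2 lay apart from replicates 1 and 3 for Ascl2 and Smoc2.

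The markers differed in how alike the GATA6KO libraries were, as the plot of ratios by library shows. Between the highest and lowest GATA6KO library the level differed by 1.32 times for Prom1 and 1.35 times for Lrig1, against 2.19 times for Ascl2, 2.90 times for Smoc2 and 3.25 times for Lgr5. The SD on the log2 scale was larger in GATA6KO than in Control for 8 of the 8 markers tested, as it was for 86.1% of all genes tested. For Cd44 the SD was 146 CPM in GATA6KO and 3.01 CPM in Control.

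Divided by the length of their annotated exons, the markers could also be ordered by level. In GATA6KO the mean level was highest for Cd44 (57.3 CPM per kb), followed by Ascl2 (38.4), Lrig1 (25.0), Prom1 (18.4), Bmi1 (13.7), Tnfrsf19 (11.5), Smoc2 (5.68) and Lgr5 (0.535 CPM per kb). In Control it was highest for Prom1 (41.3 CPM per kb), followed by Cd44 (38.3), Ascl2 (36.5), Lrig1 (36.4), Bmi1 (17.6), Tnfrsf19 (10.99), Lgr5 (6.94) and Smoc2 (3.004 CPM per kb). In Control the ranges of neighbours overlapped among the first 4 genes and were apart from Lrig1 downward. In GATA6KO they overlapped between Cd44 and Ascl2, Ascl2 and Lrig1, Prom1 and Bmi1, and Bmi1 and Tnfrsf19. For its length Lgr5 was thus among the lowest of the tested markers in both groups, and in GATA6KO it lay below Smoc2 in every library. The length is that of all annotated exons joined, so the value of a gene with rarely used exons is too low.

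Lgr5 has a pair of close relatives, Lgr4 and Lgr6, which bind the same R-spondins, and both rose where Lgr5 fell. Lgr4 (ENSMUSG00000050199, chromosome 2, 109917647 to 110014257) measured 114, 133 and 131 CPM in GATA6KO replicates 1 to 3, against 88.7, 83.2 and 88.5 CPM in Control replicates 1 to 3. It rose by 0.54 on the log2 scale (SE 0.09, edgeR adjusted p = 0.0163). Lgr6 (ENSMUSG00000042793, chromosome 1, 134983301 to 135105276), known as a marker of stem cells in the skin and hair follicle, measured 239, 242 and 207 CPM in GATA6KO, against 118, 99.6 and 95.8 CPM in Control. It rose by 1.14 on the log2 scale (SE 0.12, edgeR adjusted p = 0.00315). For both genes every GATA6KO library was above every Control library. Lgr6 was called under 16 of 16 alternatives, and Lgr4 was not called without Control replicate 1, 2 or 3.

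**Figure D3:**
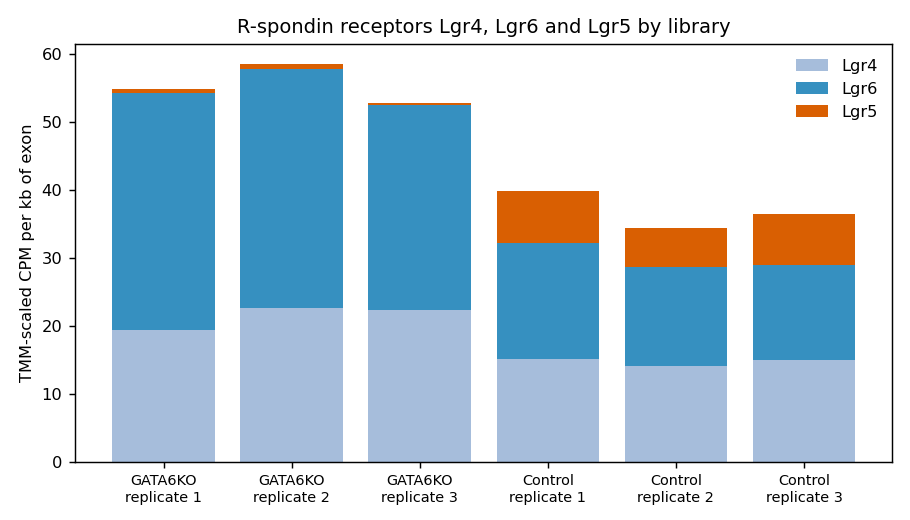
TMM-scaled CPM per kb of exon of the R-spondin receptors Lgr4, Lgr6 and Lgr5, stacked for each library. Lgr5, at the top of each bar, made up 0.437% to 1.28% of the sum in GATA6KO libraries and 16.7% to 20.5% in Control libraries.

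Per length, Lgr5 made up 0.951% ± 0.451 of the summed level of the 3 receptors in GATA6KO and 18.7% ± 1.92 in Control (SD, n = 3 each; 2-sided exact permutation p = 0.1, the smallest possible). This share compares genes within a library, so the scaling between libraries does not enter it. The sum was 55.4 ± 2.94 CPM per kb in GATA6KO and 36.9 ± 2.73 CPM per kb in Control (SD, n = 3 each, exact permutation p = 0.1), as the stacked bars of the receptors show. Lgr4 and Lgr6 were at similar levels in Control, 14.8 and 15.2 CPM per kb, and in GATA6KO stood at 21.4 and 33.5 CPM per kb.

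Znrf3 and Rnf43 rose as well. These ligases that R-spondins and Lgr receptors restrain measured 82.7 ± 14.8 and 245 ± 30.1 CPM in GATA6KO and 46.6 ± 4.67 and 169 ± 5.63 CPM in Control (SD, n = 3 each). Their log2 fold changes were 0.83 (edgeR adjusted p = 0.0202) and 0.54 (adjusted p = 0.0264), and neither was called without Control replicate 1, 2 or 3. Of the 8 genes listed for this module, 4 were tested and 4 rose (Lgr4, Lgr6, Rnf43 and Znrf3). Over all genes tested, 6.92% were called higher. This list, like the others, was chosen with earlier results of these data known, so the count is a description only. Lgr4 and Lgr6 are counted again among the relatives, and Rnf43 and Znrf3 among the signature genes. Of the 4, only Lgr6 was called under every alternative. The R-spondin genes Rspo1, Rspo2 and Rspo4 had 0 counts in all libraries and Rspo3 had 1 count in GATA6KO replicate 1.

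Relatives of other markers also went separate ways. Prom2, the paralog of Prom1, measured 24.8, 20.98 and 13.4 CPM in GATA6KO replicates 1 to 3, against 4.51, 3.54 and 3.84 CPM in Control replicates 1 to 3. It rose by a log2 fold change of 2.32 (SE 0.26, edgeR adjusted p = 0.00445) where Prom1 fell. Ascl4, a relative of Ascl2, measured 8.12, 12.6 and 5.17 CPM in GATA6KO, against 1.01, 0.832 and 0.434 CPM in Control. It rose by 3.51 (SE 0.46, edgeR adjusted p = 0.0068). Both were called under 16 of 16 alternatives.

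Of the 21 relatives listed, 14 were tested, 4 rose and 2 fell, where 6.92% of all genes tested were called higher and 5.47% lower, and their median log2 fold change was 0.49, beside 0.02 over all genes. The 4 that rose were Lgr4, Lgr6, Prom2 and Ascl4. Those that fell were Lrig2 and Pcgf5, both named after their values were seen. Lrig2, a paralog of Lrig1, had a log2 fold change of -0.50 (edgeR adjusted p = 0.0413). Pcgf5, a relative of Bmi1, had one of -0.56 (edgeR adjusted p = 0.0373). Lrig2 and Pcgf5 were called under 6 and 9 of 16 alternatives, and neither was called without GATA6KO replicate 2 or 3 or any 1 Control library.

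**Figure D4:**
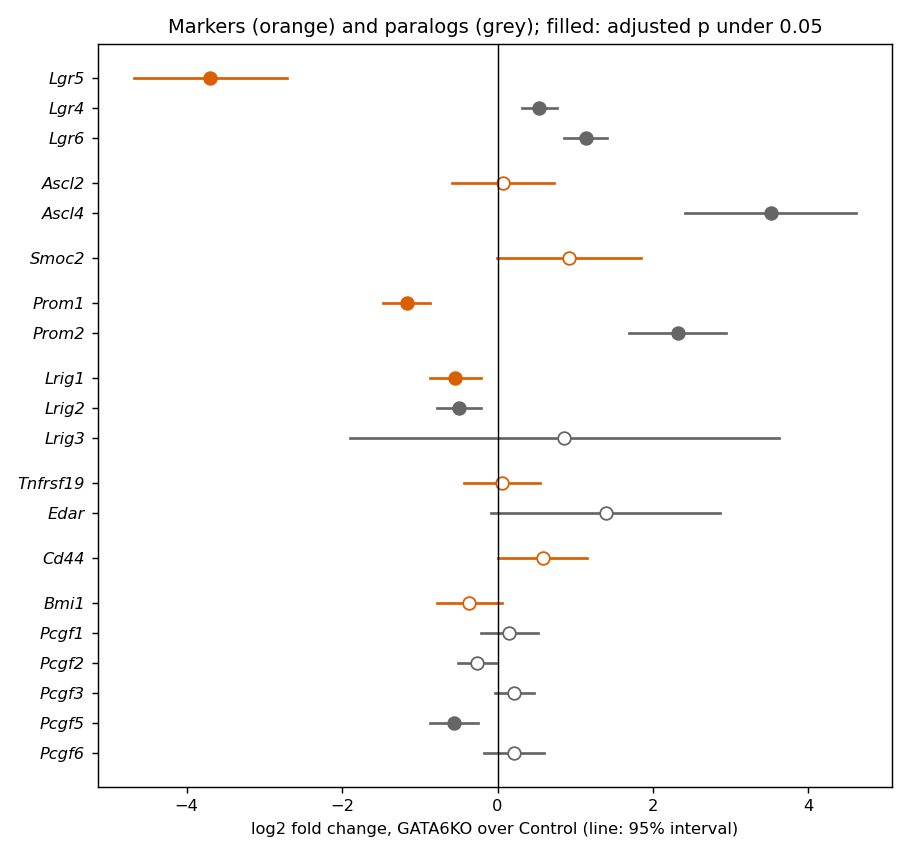
Log2 fold change of GATA6KO over Control for the 8 tested markers (orange) and 12 of their tested relatives (grey), with unadjusted 95% intervals; filled points had an adjusted p under 0.05. Lgr5 and Prom1 lie left of 0 with Lgr4, Lgr6 and Prom2 to the right, while Lrig1 and Lrig2 lie on the same side. Lrig3, named after its values were seen, lies to the right at 0.86 with an interval that crosses 0 (-1.90 to 3.62).

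Rnf43, Znrf3 and Ets2 rose and Csrp2 fell among further genes of the crypt stem cell signature. Of 25 listed, 22 were tested, 3 rose and 1 fell, where 12.4% of all genes tested were called in either direction, and their median log2 fold change was 0.08. Besides Rnf43 and Znrf3, Ets2, a transcription factor of the signature, measured 565 ± 41.7 CPM in GATA6KO and 388 ± 22.9 CPM in Control (SD, n = 3 each; log2 fold change 0.54, edgeR adjusted p = 0.0185). Csrp2, a LIM-domain protein, measured 20.2 ± 5.30 CPM in GATA6KO and 48.1 ± 4.56 CPM in Control (log2 fold change -1.25, edgeR adjusted p = 0.0122). None of these was called by edgeR without Control replicate 1, 2 or 3, and 7 of the list were called without GATA6KO replicate 2. Over all genes the calls went from 1823 to 425, 389 and 332 without Control replicates 1, 2 and 3. Without GATA6KO replicate 2 they were 2344 of 15128 genes tested. Mex3a, an RNA-binding protein of slowly cycling Lgr5-expressing cells, was chosen after its values were seen. It measured 54.7, 25.3 and 60.2 CPM in GATA6KO replicates 1 to 3, against 22.4, 20.1 and 18.6 CPM in Control. The log2 fold change was 1.20 (edgeR adjusted p = 0.052). Mex3a was called under 5 of 16 alternatives. Among them were DESeq2 (DESeq2 adjusted p = 0.00187) and edgeR without GATA6KO replicate 2 (1.499 on the log2 scale, adjusted p = 0.00209). Replicate 2 was the lowest of the GATA6KO libraries for Mex3a, as for Ascl2, Smoc2, Tnfrsf19, Prom1 and Lrig1.

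Differentiation and proliferation genes were counted in the same way, beside 12.4% of all genes tested called in either direction. Of 24 differentiation markers, 12 were tested, 2 rose and 1 fell (median log2 fold change 0.06), and 13 stayed under 1 CPM in every library. Car1, a carbonic anhydrase of colonocytes, measured 189 ± 22.8 CPM in GATA6KO and 80.9 ± 14.5 CPM in Control (SD, n = 3 each; log2 fold change 1.23, edgeR adjusted p = 0.00669). The aminopeptidase Anpep rose by 3.85 (edgeR adjusted p = 0.0286) at 2.37 CPM in GATA6KO and 0.161 CPM in Control, and the phosphatase Alpi fell by 3.94 (adjusted p = 0.0206) at 0.0878 CPM in GATA6KO and 1.41 CPM in Control. Anpep and Alpi were not called without Control replicate 1, 2 or 3, Anpep also not by limma-voom, and Alpi also not without GATA6KO replicate 3. Of 10 proliferation genes, 10 were tested (median log2 fold change -0.02). At an unadjusted p under 0.05, 2 were higher and 1 lower, and the share over all genes at that threshold was not counted. At the adjusted threshold 1 rose and 0 fell by edgeR. The gene that rose was Mcm2, a subunit of the replicative helicase, at 209 ± 15.7 CPM in GATA6KO and 156 ± 3.25 CPM in Control (log2 fold change 0.43, edgeR adjusted p = 0.027), not called without Control replicate 1, 2 or 3.

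The genes whose pattern over the 6 libraries lay nearest to that of Lgr5 were Ppm1j, Gde1, Syce2, Pgf and Itga2. Likeness was the root mean square distance between log2 levels centred on the Control mean, and it is a description with no test. Only genes averaging 5 CPM or more in Control were ranked, and those with clone or predicted names (such as Gm or Rik) were left out. The choice depends on the measure: by Pearson correlation over the 6 libraries, 0 of these 5 were among the 5 nearest. The distances were 0.442, 0.471, 0.482, 0.664 and 0.689. In the same order the log2 fold changes were -3.67, -3.50, -3.50, -3.22 and -3.20, beside -3.70 for Lgr5. Nearness here is thus largely likeness in the size of the fall. Within GATA6KO, Ppm1j, Gde1, Syce2 and Pgf were highest in replicate 1, while Itga2 and Lgr5 were highest in replicate 2. Itga2, an integrin subunit that binds collagen, measured 7.82, 15.05 and 10.04 CPM in GATA6KO, against 94.3, 108 and 99.3 CPM in Control. Pgf, a growth factor of the VEGF family, measured 4.01, 1.48 and 1.301 CPM in GATA6KO, against 17.9, 17.9 and 27.4 CPM in Control. Gde1, a phosphodiesterase of glycerophospholipids, measured 0.752 CPM on average in GATA6KO and 8.57 CPM in Control, and Syce2, a protein of the synaptonemal complex of meiosis, 1.62 CPM in GATA6KO and 18.4 CPM in Control. Ppm1j, a protein phosphatase, measured 0.643 CPM on average in GATA6KO and 8.24 CPM in Control. None of the other markers was among them, and the nearest of these was Prom1 at 1.99.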

How the data were processed

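Poly(A)-selected RNA was sequenced as strand-marking libraries, per the labels' protocols. The authors deposited estimated counts per gene in whole numbers, not scaled between libraries; per the submitters' processing notes, Salmon 1.3.0 and mm10 were used in some role. Annotation, rounding and strand handling: not given in the sources used here. Estimated counts divide reads among similar transcripts. Of 54418 Ensembl identifiers, 54166 matched GENCODE M21 (mm10), which gave symbols, coordinates and exon lengths. No 2 libraries were identical, with at least 23754 genes differing between any pair.

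Genes were kept by edgeR's filterByExpr (about 10 counts in at least 3 libraries and 15 in total), with TMM scaling. Over 14714 genes, GATA6KO was tested against Control by glmQLFit (robust) and glmQLFTest, with Benjamini-Hochberg adjustment over all genes and a threshold of 0.05. Each adjusted p is from this edgeR test unless another is named. The SE is the log2 fold change divided by the square root of F, and 95% intervals are unadjusted. Levels are TMM-scaled CPM. Versions were edgeR 4.0.16, DESeq2 1.42.0 and limma 3.58.1 under R 4.3.3. The test was also run on simulated data, but its settings and outcome are not reported here and nothing is drawn from it.

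The 10 markers and all lists were chosen with earlier results of these data known. Named genes were Gata6, the 10 markers, up to 4 called genes of each list by adjusted p (at least 1 CPM in a group), and the 5 genes nearest to Lgr5; genes outside this rule are said to be so. Cd68, Ptprc, the epithelial genes and the R-spondin genes were likewise named after their values were seen. Replicate numbers were not used to pair the libraries in the main fit (see the closing section). Alternatives were other scalings, DESeq2, limma-voom with 1 spread or a spread per group, other filters, no robust estimation, a test against a 1.5-fold change, a replicate block, and leaving out 1 library at a time.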

Additional observations from a re-analysis of the deposited data

How the results depend on the processing

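Lgr5 and Prom1 were called lower under all 16 alternatives, at log2 fold changes of -4.02 to -3.34 and -1.29 to -1.09. The number of markers called lower was 2 or 3 with each library left out, and the number called higher was 0 or 1, the 1 being Smoc2 without GATA6KO replicate 2. With libraries left out, the other stem cell signature genes called numbered 0 to 7 (4 with all libraries), the genes of the further lists 4 to 16 (12 with all libraries), and all genes 332 to 4360 (1823 with all libraries). The test against a 1.5-fold change called 0, 5 and 525 of these, and DESeq2 called 3238 genes in all. With scaling to the library total alone, 65.7% of the genes called were higher rather than lower, against 55.8% of those called in the main fit. That scaling also moved the median of all genes to 0.09 and lost Lrig1. The lowest numbers of calls over all genes came with a Control library left out (425, 389 and 332 for replicates 1, 2 and 3). With GATA6KO replicate 1, 2 or 3 left out they were 4360, 2344 and 1834.

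Same-numbered libraries showed no clear shared deviation (correlations of -0.01, 0.07 and -0.09). With 3 libraries in each group this cannot exclude a weaker pairing, and the numbers are used here as names only. With the replicate block 2 other signature genes, 7 genes of the further lists and 827 genes in all were called, and 2 markers were lower (Lgr5 and Prom1).

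Log2 fold changes near 0 changed sign. Ascl2 was -0.0056 with limma-voom, -0.0055 with a spread per group, -0.0028 with the replicate block, and -0.13 and -0.05 without GATA6KO replicates 1 and 3 (0.35 at most, without GATA6KO replicate 2). Tnfrsf19 was -0.15 without GATA6KO replicate 1 and -0.02 without Control replicate 2 (0.24 at most, without GATA6KO replicate 2). The cause was not tested. Of the other values of single genes, 416 kept their side of the threshold, 82 were no longer called and 6 were newly called. By Pearson correlation in place of distance, 0 of the 5 nearest genes to Lgr5 were shared. Without division by length, added after seeing the data, Lgr5 was 1.497% of the counts of the 3 receptors in GATA6KO and 27.1% in Control. Olfm4 and Msi1 are limited by depth.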
